A study of Mus musculus with 65 samples.

Results

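Retinas taken 14 days after withdrawal of the microglia-depleting drug PLX5622 (REPOP14) were compared with retinas of mice that had stayed on control diet (CD), and the question was which microglial genes were still below control and which had already reached or passed it. PLX5622 blocks CSF1R, the receptor that microglia need to survive. The members are the 4 REPOP14 mice and the 5 CD mice, 9 of the 65 mice of the series, chosen by the group given in the sample descriptions. All were adult C57BL/6J mice of wild type. REPOP14 mice had eaten PLX5622 (1200 ppm in AIN-76A chow) for 14 days and then AIN-76A chow alone for 14 days, and CD mice had eaten AIN-76A chow only (vehicle in the labels). A further group of 4 mice, DEP14, was killed at the end of 14 days of PLX5622 and is given beside REPOP14 to show how far each gene had fallen. RNA came from the whole retinal homogenate, so a microglial transcript was diluted in the RNA of all other retinal cells. In such bulk samples fewer cells of a type and less RNA per cell cannot be told apart.

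The sample titles end in RE or in re, and the labels do not say what the suffix stands for. It marked 3 RE and 2 re mice in CD, and 3 RE mice and 1 re mouse (replicate 1) in REPOP14. The first principal component of the 9 libraries held 61.8% of the variance and set the 3 re mice (-25.0 to -23.6) apart from the 6 RE mice (-0.285 to 24.5), whatever their group. The suffix was therefore a term of the fit, and values are also given within the suffixes. The description of replicate 2M of CD carries 2M, as do those of the 2-month repopulation group, whereas the other CD mice carry a number, and the labels give no time or age in days for any CD mouse. Without this mouse 15 microglial genes were low and 4 high. CD replicates 2 and 2M have the same number in their titles with different suffixes, and the labels do not say whether they came from the same mouse. Libraries held between 7468474 and 8576859 counted reads. At this depth 3 counts, taken as the floor, equal 0.350 to 0.402 CPM (counts per 1000000 counts, with library sizes scaled by TMM), and this floor allows for counting error alone. Mitochondrial genes took 3.1 to 3.5% of the counts in the re mice and 4.1 to 5.0% in the RE mice. Rlbp1, a retinoid-binding protein of Müller glia and pigment epithelium, was at 287 ± 17.7 CPM in CD and 285 ± 17.0 CPM in REPOP14 (SD, n = 5 and n = 4). Rpe65 of the pigment epithelium was at 0.721 ± 0.729 and 0.938 ± 0.476 CPM, and Cldn5 of the endothelium at 7.81 ± 1.35 and 6.88 ± 0.928 CPM.

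Microglia are the resident macrophages of the retina. At rest they display a set of surface proteins, among them the ADP receptor P2RY12, the fractalkine receptor CX3CR1 and the membrane protein TMEM119, through which they sense neurons. They also make the 3 chains of complement C1q, which tags synapses and debris, and carry lysosomal proteases, phagocytic receptors and an oxidase for digesting what they engulf. These roles order the 70 microglial genes examined, which are 12 homeostatic receptors and secreted proteins, 20 complement and immune receptors, 18 signalling and cytoskeletal proteins, 12 lysosomal and oxidase proteins and 8 transcription factors.

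The upstream sequence is shown for 2 genes that were low in REPOP14 and for 2 genes near the control mean, because the myeloid factor PU.1 (Spi1) binds a core that reads GAGGAA. Each line gives the 250 bases before the transcript start in RefSeq on GRCm38.p6, with a GAGGAA or its complement TTCCTC in capitals. The windows are chr3:59262986-59263235 for P2ry12, chr9:120068297-120068546 for Cx3cr1, chr4:136886201-136886450 for C1qb and chr4:136892915-136893164 for C1qc, all on the minus strand.
P2ry12: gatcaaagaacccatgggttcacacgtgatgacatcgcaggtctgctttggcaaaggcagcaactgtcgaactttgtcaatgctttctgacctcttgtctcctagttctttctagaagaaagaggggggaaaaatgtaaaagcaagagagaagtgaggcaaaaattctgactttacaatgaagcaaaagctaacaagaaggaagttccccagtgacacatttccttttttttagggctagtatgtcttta
Cx3cr1: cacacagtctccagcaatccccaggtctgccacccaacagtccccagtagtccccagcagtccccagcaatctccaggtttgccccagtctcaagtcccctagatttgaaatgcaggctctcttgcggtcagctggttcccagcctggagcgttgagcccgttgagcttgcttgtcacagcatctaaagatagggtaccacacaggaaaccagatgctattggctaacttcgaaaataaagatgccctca
C1qb: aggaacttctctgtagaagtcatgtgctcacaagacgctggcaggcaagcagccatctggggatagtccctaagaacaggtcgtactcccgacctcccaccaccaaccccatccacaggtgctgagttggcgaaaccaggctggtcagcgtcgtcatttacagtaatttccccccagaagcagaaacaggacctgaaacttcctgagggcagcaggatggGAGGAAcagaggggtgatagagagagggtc
C1qc: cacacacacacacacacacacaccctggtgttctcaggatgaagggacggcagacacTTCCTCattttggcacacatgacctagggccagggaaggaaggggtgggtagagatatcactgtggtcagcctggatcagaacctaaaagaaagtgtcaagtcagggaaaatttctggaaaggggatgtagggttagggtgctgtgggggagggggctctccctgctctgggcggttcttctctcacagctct
The C1qb and C1qc windows each held 1 such word, starting 30 and 193 bases before the transcript start, and those of P2ry12 and Cx3cr1 held none. Over the whole window of 250 bases before to 50 bases after the start, 28.3% of the 32851 promoters in the table had the word on either strand, as did 31.3% of the 27025 genes with a promoter there. Of the 70 microglial genes, 51 had a promoter in the table and 26 of them (51.0%) had the word. It was in 6 of 11 promoters of the genes that were low in REPOP14, in 3 of 5 of those that were high, and in 17 of 34 of the rest. A match is a description of letters and not a binding site.

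Across all 23937 genes tested, REPOP14 had 0 DEGs against CD (edgeR quasi-likelihood test with the suffix as a term; a DEG needed an FDR below 0.01 by the Benjamini-Hochberg method and a log2 fold change above 1 or below -1), which is 0% of the genes. At an FDR under 0.05 with no fold threshold there were 3 genes (0.0125%), namely Gfap, Gm28438 and Gm29216. Without adjustment, 818 genes had p under 0.05, of which 382 were lower and 436 higher. DESeq2 with the same terms also gave 0 DEGs, and edgeR's likelihood ratio test gave 4 (Mki67, Krt5, Krt13 and Gm28438). In the same kind of fit DEP14 had 10 DEGs against CD (0.0419% of 23884 genes), and all 10 were on the microglial lists. No microglial gene passed the FDR in REPOP14, so the account below sorts the genes by the 95% interval of their log2 fold change, without adjustment for the number of genes. By that measure 1.6% of all genes tested were lower and 1.82% were higher.

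Of the 70 microglial genes 69 were tested, and the complement receptor gene C5ar1 was too sparse. Of these, 66 had a count in at least 50% of the mice of both groups, 1 (Slc2a5) passed through CD alone and 2 (Tlr2 and Cybb) through REPOP14 alone. The interval lay below 0 for 17 genes, above 0 for 5 and across 0 for 47. Of the 66 genes that passed through both groups, 16 were low and 4 were high, since Slc2a5 and Cybb were called in the group that let them pass. Among the 36 microglial genes with a mean of at least 1 CPM over the 9 mice, 10 were low and 3 high, where 1.38% and 1.56% of all genes with such a mean were. Among the 47 it still excluded a halving for 30 and did not for 17, most of which were sparse. The smallest FDR of any microglial gene was 0.234 (P2ry12). The median log2 fold change of the 69 genes was -0.12, against 0.01 for all genes tested, and in DEP14 it had been -1.69. Relative to the mean of CD, the median over these genes was 0.02 in REPOP14 replicate 1 (re), and -0.21, -0.24 and -0.03 in the RE replicates 2 to 4, on a log2(CPM + 0.5) scale. Replicates 1 and 4 were close to CD and replicates 2 and 3 below it, and without replicate 1 the fitted median was -0.30. With that mouse left out all re mice are in CD and the suffix term takes them up, so such a fit compares RE mice only.

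**Figure D1:**
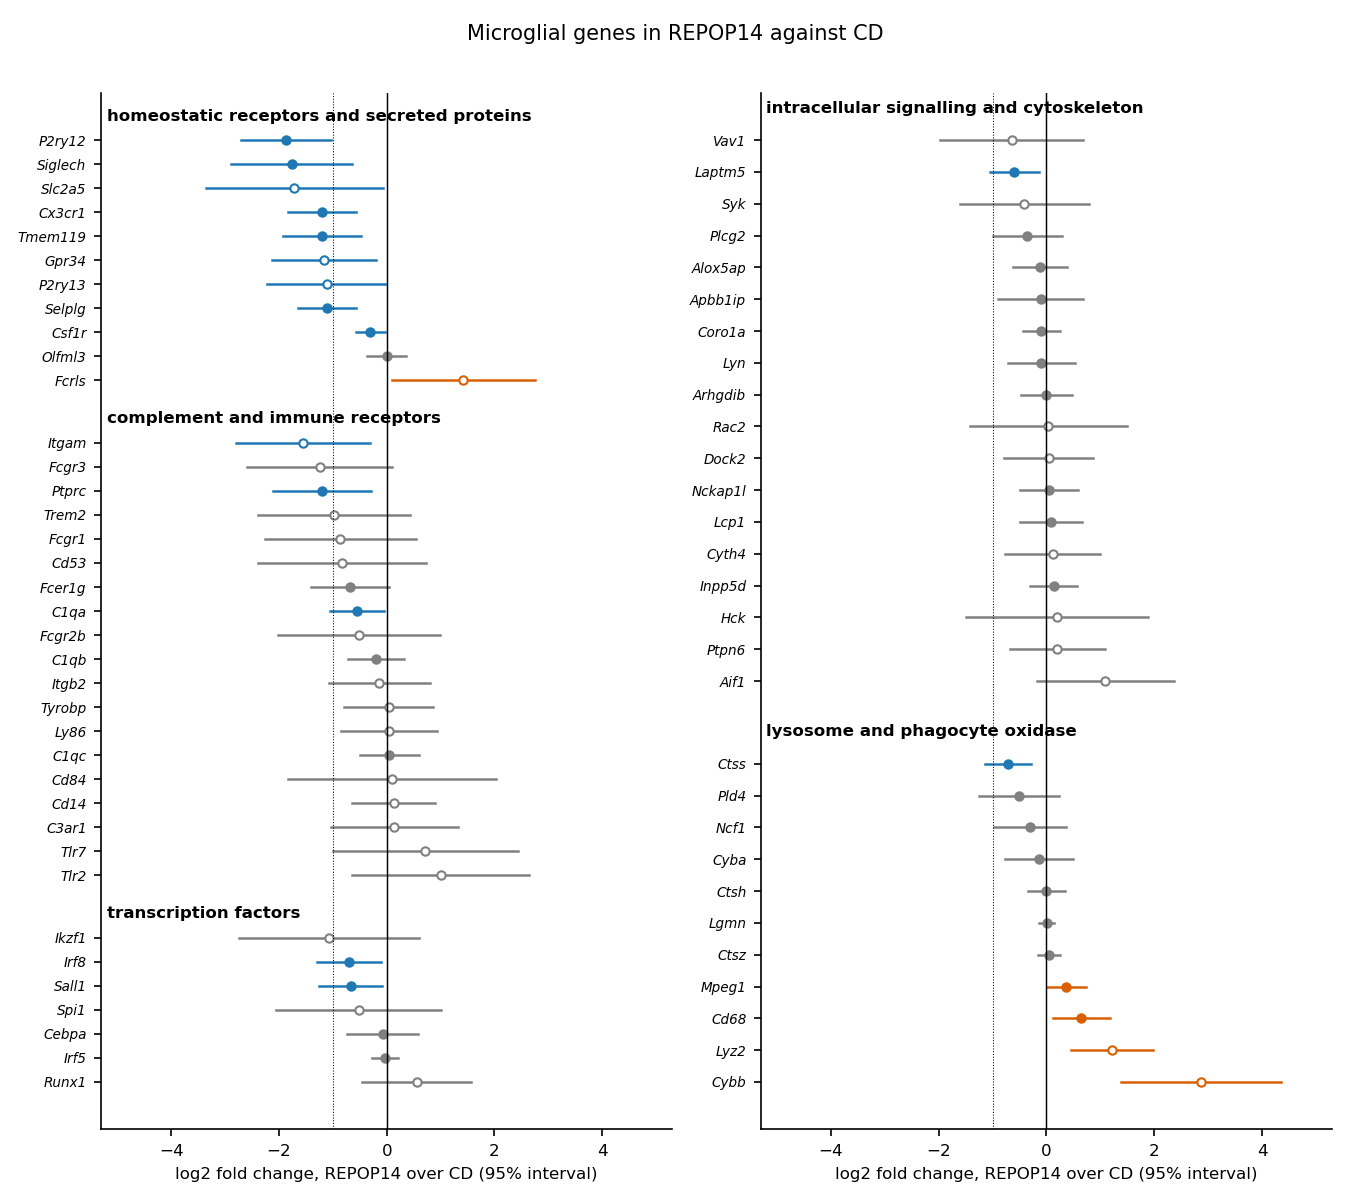
Log2 fold change of REPOP14 over CD with its 95% interval for 66 of the 69 tested microglial genes, by role (filled points, CD mean of at least 1 CPM; open points, below 1 CPM; dotted line, a halving). Blue marks the 16 genes drawn with the interval below 0, most of them homeostatic receptors, and orange the 5 with the interval above 0, of which 4 are lysosomal or oxidase genes.

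The homeostatic surface genes formed the low end. Of the 12 genes of this list 10 had the interval below 0, 9 had a log2 fold change below -1 (as did 4.04% of all genes tested), and in 5 (P2ry12, Tmem119, Selplg, Gpr34 and P2ry13) all REPOP14 mice were below all CD mice, which held for 0.351% of all genes tested. The summed level of the list was 37.2 ± 4.63 CPM in CD, 26.4 ± 1.87 CPM in REPOP14 and 13.5 ± 2.31 CPM in DEP14. Csf1r, the drug's own target and the most abundant gene of the list, makes up a large part of that sum.

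P2ry12 (chr3:59216272-59262871, GENCODE M21 on GRCm38), the receptor that draws microglial processes towards ADP, was lowest. Its level was 1.03, 2.97, 1.16, 1.996 and 0.924 CPM in CD replicates 1 to 4 and 2M, and 0.520, 0.386, 0.464 and 0.499 CPM in REPOP14 replicates 1 to 4. The groups did not overlap, and the mean of REPOP14 was 28.9% of that of CD. The log2 fold change was -1.87 ± 0.41 (SE; 95% interval -2.71 to -1.03; FDR = 0.234 by edgeR's quasi-likelihood test). Within the suffixes REPOP14 was at 22.0% of CD among RE mice and at 53.1% among re mice.

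Siglech (chr7:55768178-55778925), a sialic acid-binding lectin, had 44 counts over the CD mice and 10 over the REPOP14 mice. It measured 0.516, 0.951, 1.29, 1.41 and 1.32 CPM in CD and 0.649, 0.515, 0 and 0.125 CPM in REPOP14. Replicate 1 lay within the range of CD, replicate 2 was just under the lowest CD mouse, and replicates 3 and 4 were far below it. The log2 fold change was -1.77 (95% interval -2.89 to -0.64; FDR = 0.995), and -2.48 without REPOP14 replicate 1. REPOP14 was at 17.5% of CD among RE mice and at 70.7% among re mice.

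Cx3cr1 (chr9:119901616-120069879), the receptor for the neuronal chemokine fractalkine, was at 3.48, 3.45, 1.93, 6.93 and 3.83 CPM in CD and at 2.21, 1.80, 1.74 and 1.12 CPM in REPOP14. CD replicate 3 lay within the range of REPOP14 and CD replicate 4 was far above the other controls. The log2 fold change was -1.20 (95% interval -1.84 to -0.56; FDR = 0.687), and -0.77 without CD replicate 4.

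Tmem119 (chr5:113793729-113800516), the membrane protein that marks resident microglia, was at 1.81, 1.43, 1.80, 1.29 and 1.85 CPM in CD and at 0.649, 1.03, 0.697 and 0.374 CPM in REPOP14. Every REPOP14 mouse was below every CD mouse, with a log2 fold change of -1.20 (95% interval -1.92 to -0.48; FDR = 0.995). Selplg (chr5:113818536-113832644), which encodes the selectin ligand PSGL-1, was at 4.0, 2.26, 2.58, 2.35 and 2.77 CPM in CD and at 1.43, 1.29, 0.929 and 1.25 CPM in REPOP14. It did not overlap either, and was at 48.2% of CD among RE mice and 42.2% among re mice (log2 fold change -1.11, 95% interval -1.66 to -0.57; FDR = 0.449).

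Other low genes of this list were Gpr34, P2ry13, Slc2a5 and Csf1r. Gpr34, a lysophospholipid receptor, was at 45.8% of CD and P2ry13, a second ADP receptor, at 46.4%. Neither overlapped with CD, but in both the highest REPOP14 mouse and the lowest CD mouse had 5 counts and differed only by library size. The interval of P2ry13 (-2.22 to -0.01) stayed below 0 in 5 of 18 alternative fits and that of Gpr34 in 14. The fructose transporter gene Slc2a5 had too few counts for a firm value. Csf1r was at 80.3% of CD, having been at 51.7% in DEP14 (log2 fold change -0.31, 95% interval -0.57 to -0.04). The interval stayed below 0 in 13 of 18 alternative fits and reached 0 among RE mice only (-0.59 to 0.11), and without CD replicates 1 or 4 or REPOP14 replicates 1 or 2. Olfml3, a secreted matrix protein, was at 102% of CD (log2 fold change 0.00, 95% interval -0.37 to 0.36), and it had stood at 67.5% in DEP14. Fcrls, an Fc receptor-like gene of mouse microglia, was the exception above control, with 9 counts in CD and 21 in REPOP14, 11 of them in replicate 4. Its interval stayed above 0 in 10 of 18 alternative fits and reached 0 without REPOP14 replicate 4 or without any of CD replicates 2, 3, 4 and 2M.

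**Figure D2:**
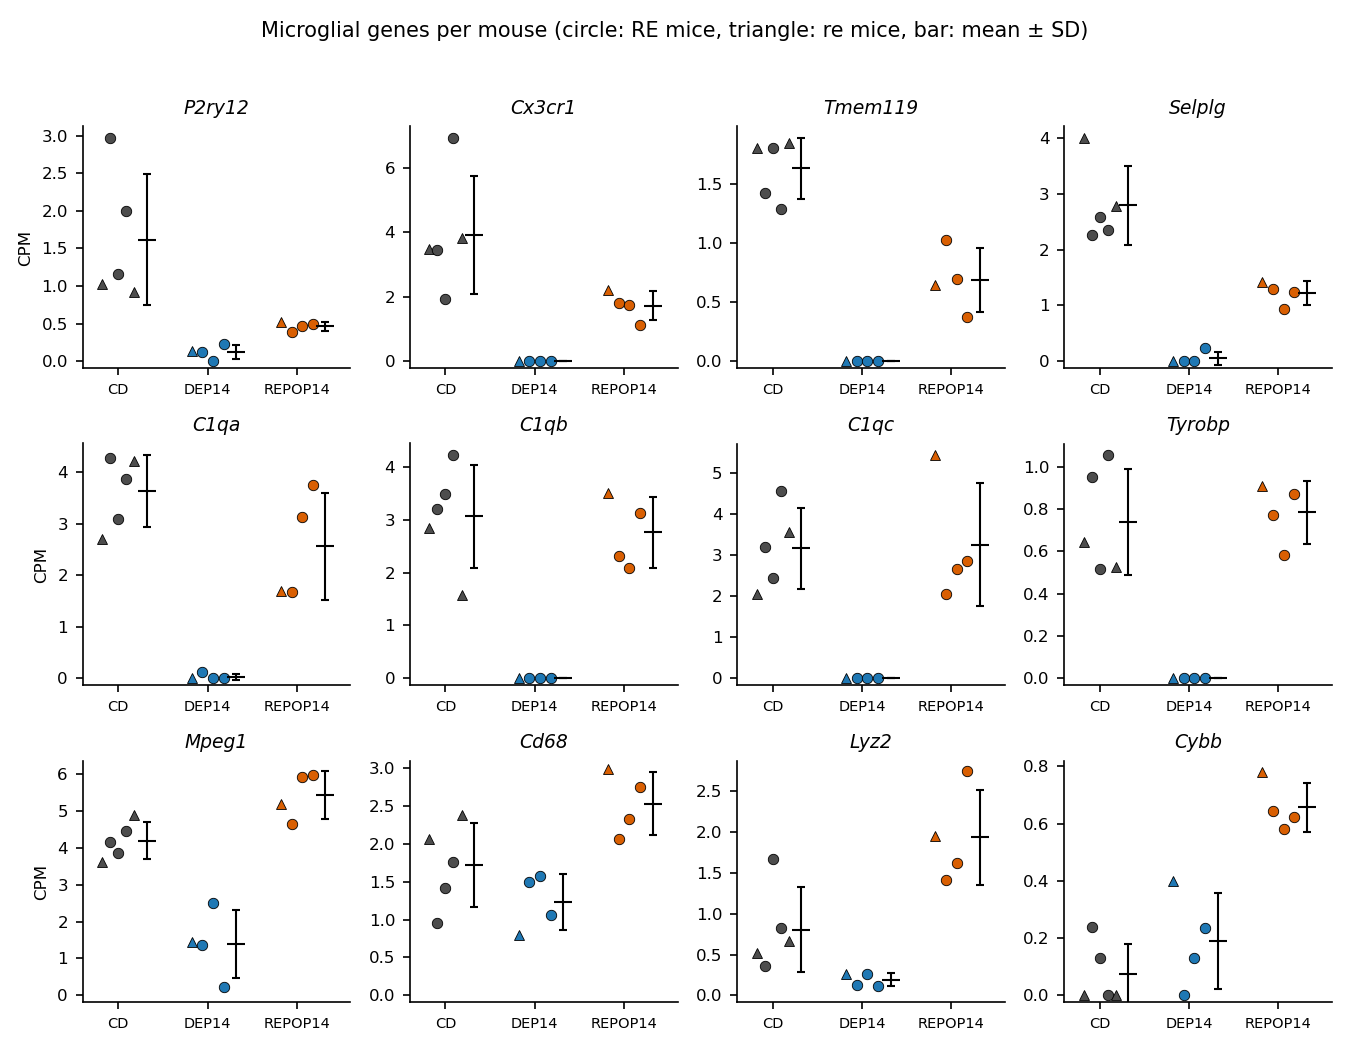
Level of 12 microglial genes in each mouse of CD, DEP14 and REPOP14 in CPM (circles, RE mice; triangles, re mice; bars, mean ± SD). P2ry12, Tmem119 and Selplg of REPOP14 lie between DEP14 and CD without reaching any CD mouse, the C1q chains and Tyrobp overlap with CD, and all REPOP14 mice exceed all CD mice for Cybb.

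Of the C1q genes, C1qb and C1qc were near the control mean and C1qa was lower. C1qb (chr4:136880129-136886187) was at 2.84, 3.21, 3.48, 4.23 and 1.58 CPM in CD and at 3.51, 2.32, 2.09 and 3.12 CPM in REPOP14. Every REPOP14 value was inside the range of CD, with a log2 fold change of -0.19 (95% interval -0.71 to 0.32). C1qc (chr4:136889804-136893065) was at 2.06, 3.21, 2.45, 4.58 and 3.57 CPM in CD and at 5.46, 2.06, 2.67 and 2.87 CPM in REPOP14. Replicate 1 had the highest value of all 9 mice, and the log2 fold change was 0.05 (95% interval -0.50 to 0.59). C1qa (chr4:136895917-136898803) was at 2.71, 4.28, 3.09, 3.88 and 4.23 CPM in CD and at 1.69, 1.67, 3.14 and 3.74 CPM in REPOP14. Its replicates 1 and 2 were below all CD mice and replicates 3 and 4 were among them, so that C1qa counted as low (log2 fold change -0.55, 95% interval -1.06 to -0.04; FDR = 0.995). The interval of C1qa reached 0 in 10 of 18 alternative fits. In the RE mice alone the 3 chains were closer to each other, at 76.0% (C1qa), 68.9% (C1qb) and 74.2% (C1qc) of CD, and all 3 intervals included 0, from -1.004 to 0.21, from -1.09 to 0.01 and from -1.05 to 0.17. The RE values leave out REPOP14 replicate 1 and also the re controls, CD replicates 1 and 2M. The position of C1qb and C1qc at the control mean therefore depended on the re mice of both groups. In CD the mean of C1qb was 3.64 CPM among RE mice and 2.21 CPM among re mice.

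The summed level of Cx3cr1, P2ry12, Tmem119, Selplg and Siglech was set against the summed level of the 3 C1q chains in each mouse, a ratio chosen after the values were seen. It was 1.42, 1.03, 0.971, 1.10 and 1.14 in CD replicates 1 to 4 and 2M, and 0.512, 0.830, 0.485 and 0.346 in REPOP14 replicates 1 to 4. All REPOP14 mice were below all CD mice, and so necessarily within each suffix too. The receptor sum was 11.1 ± 1.87 CPM in CD and 4.42 ± 0.981 CPM in REPOP14, without overlap, whereas the C1q sum was 9.88 ± 1.91 and 8.58 ± 2.04 CPM, with overlap. The ratio was not tested, because its genes were picked by their values.

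**Figure D3:**
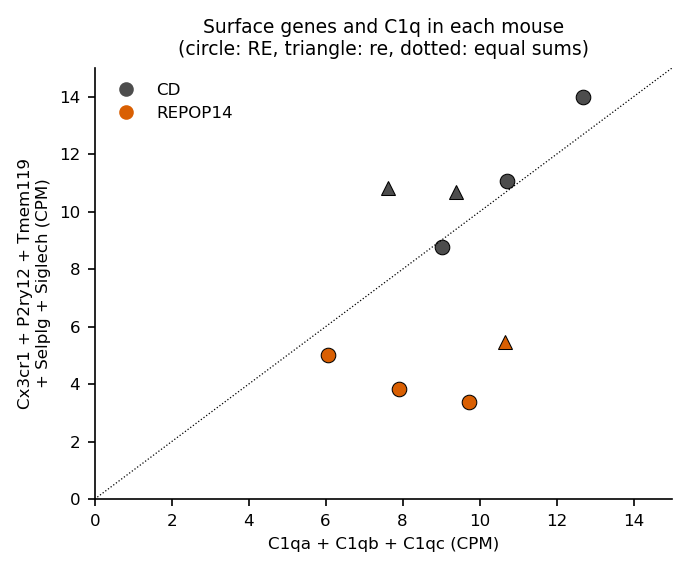
Summed CPM of Cx3cr1, P2ry12, Tmem119, Selplg and Siglech against summed CPM of C1qa, C1qb and C1qc, one point per mouse (circles, RE; triangles, re; dotted line, equal sums). CD mice lie near or above the line and the 4 REPOP14 mice lie below it, and 3 of the 4 have C1q sums within the range of the CD mice.

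Among the other immune receptors, Itgam (CD11b, the alpha chain of complement receptor 3) had 27 counts over the CD mice and 7 over the REPOP14 mice, and all REPOP14 mice were below all CD mice (log2 fold change -1.56, 95% interval -2.80 to -0.31; FDR = 0.995). The interval stayed below 0 in 14 of 18 alternative fits. It reached 0 with DESeq2 and without CD replicate 4 (-2.75 to 0.06) or REPOP14 replicate 3, and the gene did not pass filterByExpr. Ptprc, the leukocyte phosphatase CD45, was at 0.387, 1.19, 1.55, 1.06 and 1.06 CPM in CD and at 0.520, 0.644, 0.232 and 0.499 CPM in REPOP14. Only CD replicate 1 reached the REPOP14 range (log2 fold change -1.21, 95% interval -2.12 to -0.29). Tyrobp (DAP12), the adaptor through which TREM2 signals, was at 106% of CD with a log2 fold change of 0.03 (95% interval -0.80 to 0.86), and Ly86, partner of the receptor RP105, was at 104%. Both had been at 0 counts in all DEP14 mice. Trem2 and the Fc receptor genes Fcgr3, Fcgr1 and Fcgr2b were at 42.2 to 73.5% of CD, with intervals that reached from a halving or more to above 0, and Fcer1g was at 64.8% (95% interval -1.40 to 0.04). Without REPOP14 replicate 1 the intervals of Trem2 (-3.90 to -0.21) and Fcer1g (-1.75 to -0.07) lay below 0. Without CD replicate 4 they included 0 (-2.055 to 1.34 and -1.49 to 0.18), and the log2 fold change of Trem2 was -0.36. In the list of 20, 3 genes were low, none was high and 16 were undecided.

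In the list of 18 signalling and cytoskeletal genes, 1 was low and 17 had intervals across 0. The low gene was Laptm5, a lysosomal membrane protein that restrains immune receptor signalling, at 65.5% of CD (5.16, 3.69, 4.77, 5.40 and 3.83 CPM in CD, and 4.29, 3.35, 2.09 and 2.25 CPM in REPOP14). Its re mouse lay among the controls and its 3 RE mice lay below all of them (log2 fold change -0.60, 95% interval -1.05 to -0.14; FDR = 0.995). The interval stayed below 0 in 15 of 18 alternative fits, and reached 0 without CD replicate 3, CD replicate 4 (-0.98 to 0.03) or REPOP14 replicate 3. Lcp1, an actin-bundling protein, was at 1.29, 1.31, 2.06, 1.53 and 1.45 CPM in CD and at 1.82, 1.67, 1.39 and 1.62 CPM in REPOP14, after 40.9% of CD in DEP14. Dock2, which activates Rac, was at 104% of CD after 12.4% in DEP14, with an interval from -0.78 to 0.87. Inpp5d (SHIP1, a phosphoinositide phosphatase) was at 3.35, 3.09, 3.74, 2.70 and 2.91 CPM in CD and at 4.42, 3.74, 2.79 and 2.74 CPM in REPOP14, 108% of CD. Nckap1l, a subunit of the actin-regulating WAVE complex in blood cells, was at 98.7% of CD, but its mice spread from 1.12 CPM (replicate 4) to 4.03 CPM (replicate 1), beyond the CD range of 2.11 to 2.77 CPM on both sides. Alox5ap, Arhgdib, Lyn and Coro1a were at 88.1 to 100% of CD, but they had also been at 90.9 to 104% in DEP14.

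Among the lysosomal and oxidase genes were 4 of the 5 genes with an interval above 0. Laptm5, which was low and is also lysosomal, is counted with the signalling genes above. Of the 12 genes of the lysosomal and oxidase list 1 was low, 4 were high (Cybb through the filter of REPOP14 alone) and 7 were across 0. The low gene was Ctss, the cathepsin that trims the invariant chain in antigen presentation, at 5.16, 7.13, 10.6, 8.10 and 3.96 CPM in CD and at 4.81, 3.61, 3.60 and 5.61 CPM in REPOP14. The low REPOP14 mice were below all controls and the others were not (log2 fold change -0.72, 95% interval -1.15 to -0.29; FDR = 0.995). Among RE mice REPOP14 was at 49.7% of CD and among re mice at 105%.

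Mpeg1, a pore-forming protein of phagosomes, was at 3.61, 4.16, 3.87, 4.46 and 4.89 CPM in CD and at 5.20, 4.64, 5.92 and 5.99 CPM in REPOP14, having been at 33.1% of CD in DEP14. Only CD replicate 2M exceeded any REPOP14 mouse (log2 fold change 0.37, 95% interval 0.01 to 0.73; FDR = 0.995). Cd68, a lysosomal membrane glycoprotein, was at 2.06, 0.951, 1.42, 1.76 and 2.38 CPM in CD and at 2.99, 2.06, 2.32 and 2.74 CPM in REPOP14 (log2 fold change 0.65, 95% interval 0.12 to 1.17; FDR = 0.995). The upper CD mice overlapped with the lower REPOP14 mice. Mpeg1 kept its interval above 0 in 8 of 18 alternative fits and Cd68 in 14.

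Lyz2, the lysozyme of myeloid cells, was at 0.516, 0.357, 1.68, 0.822 and 0.660 CPM in CD and at 1.95, 1.42, 1.63 and 2.74 CPM in REPOP14. CD replicate 3 alone reached the REPOP14 range. The log2 fold change was 1.22 (95% interval 0.46 to 1.98; FDR = 0.995), and the interval stayed above 0 in all 18 alternative fits. Lyz2 had been at 23.9% of CD in DEP14. Cybb, the catalytic subunit of the phagocyte NADPH oxidase, had counts of 0, 2, 1, 0 and 0 in CD and of 6, 5, 5 and 5 in REPOP14. The groups did not overlap, but the gene passed the filter through REPOP14 alone, so that it could hardly have come out low. The ratio of the summed counts was 8.69 with a counting interval of 2.59 to 45.5 (exact binomial), which covers counting error only. The FDR was 0.661 by edgeR's quasi-likelihood test. Leaving out 1 mouse at a time moved the fitted log2 fold change of 2.87 to between 2.20 and 3.85. The other oxidase subunits did not share this pattern, with Cyba at 93.1% and Ncf1 at 80.9% of CD. Lgmn, Ctsh and Ctsz, lysosomal proteases that many retinal cells make, were at 101 to 105% of CD. Ctsz, for one, was at 21.8, 25.8, 24.6, 24.4 and 26.4 CPM in CD and at 22.7, 25.5, 26.2 and 29.3 CPM in REPOP14.

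Among the 8 transcription factors, Irf8 and Sall1 were low. Irf8, which directs myeloid development, was at 2.32, 1.31, 2.58, 2.11 and 1.98 CPM in CD and at 1.30, 1.03, 1.39 and 1.25 CPM in REPOP14. The REPOP14 mice sat at or below the lowest control, CD replicate 2, except replicate 3 (log2 fold change -0.70, 95% interval -1.30 to -0.11; FDR = 0.995). Sall1, a factor that maintains microglial identity and is also made by other retinal cells, was at 2.06, 1.78, 1.80, 1.64 and 1.98 CPM in CD and at 1.56, 0.902, 1.16 and 0.873 CPM in REPOP14. All REPOP14 mice were below all CD mice (log2 fold change -0.67, 95% interval -1.26 to -0.08; FDR = 0.995). The interval of Irf8 stayed below 0 in 13 of 18 alternative fits, and reached 0 among RE mice only (-1.45 to 0.07), with DESeq2, and without CD replicate 3 or REPOP14 replicates 1 or 2. That of Sall1 stayed below 0 in 15, and reached 0 with DESeq2 and without REPOP14 replicates 2 or 4. Spi1 (PU.1) was at 74.8% of CD with an interval from -2.06 to 1.01, too wide to place it. Irf5 was at 96.0%, and it had been at 97.2% in DEP14.

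An interval across 0 does not place a gene at the control level, and some of these genes had not been depleted. Of the 47 genes with intervals across 0, 26 had been under 50% of CD in DEP14 (C1qb, C1qc, Tyrobp, Ly86, Dock2 and Lcp1 among them), 10 between 50 and 80%, and 11 at 80% or more (among them Lgmn, Ctsh, Ctsz and Irf5). Of the 17 low genes 16 had been under 50% of CD in DEP14, all but Csf1r. DEP14 and REPOP14 are both set against the same CD mice, so low values in the 2 groups are not independent. Of the 5 high genes Fcrls, Mpeg1 and Lyz2 had been under 50%, Cd68 at 71.8%, and Cybb above CD but sparse.

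The 10 genes that were DEGs in DEP14 stood in REPOP14 at 28.9% (P2ry12), 29.4% (Siglech), 42.0% (Tmem119), 43.8% (Cx3cr1), 43.8% (Selplg), 63.1% (Ctss), 65.5% (Laptm5), 70.4% (C1qa), 89.9% (C1qb) and 103% (C1qc) of CD. In DEP14 none of them had been above 7.60% of CD. Neighbours in this order overlapped between mice, except Selplg and Ctss, and the differences between these genes were not tested. The suffixes are unbalanced between the groups, and among RE mice the order and the span were different, at 17.5% (Siglech), 22.0% (P2ry12), 37.9% (Cx3cr1), 46.5% (Tmem119), 48.2% (Selplg), 49.7% (Ctss), 55.5% (Laptm5), 68.9% (C1qb), 74.2% (C1qc) and 76.0% (C1qa). None of the 10 then reached the CD mean, and Selplg and Ctss were side by side. Their summed level was 28.8, 32.6, 33.1, 40.2 and 27.9 CPM in CD, and 25.2, 18.0, 17.4 and 20.96 CPM in REPOP14, so that all REPOP14 mice were below all CD mice. Compared directly with DEP14 in the same kind of fit, REPOP14 had 7 DEGs, all higher (0.0285% of 24524 genes), which were C1qa, C1qb, C1qc, Cx3cr1, Ctss, Laptm5 and Lyz2. P2ry12, Siglech, Tmem119 and Selplg were not among them, but all had more counts in REPOP14. Summed over the DEP14 and the REPOP14 mice, P2ry12 had 4 and 15 counts, Siglech 0 and 10, Tmem119 0 and 22, and Selplg 2 and 39. At such counts, missing the thresholds does not show that a gene had stayed at its DEP14 level. The comparison with DEP14 shares the REPOP14 mice with the one against CD.

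**Figure D4:**
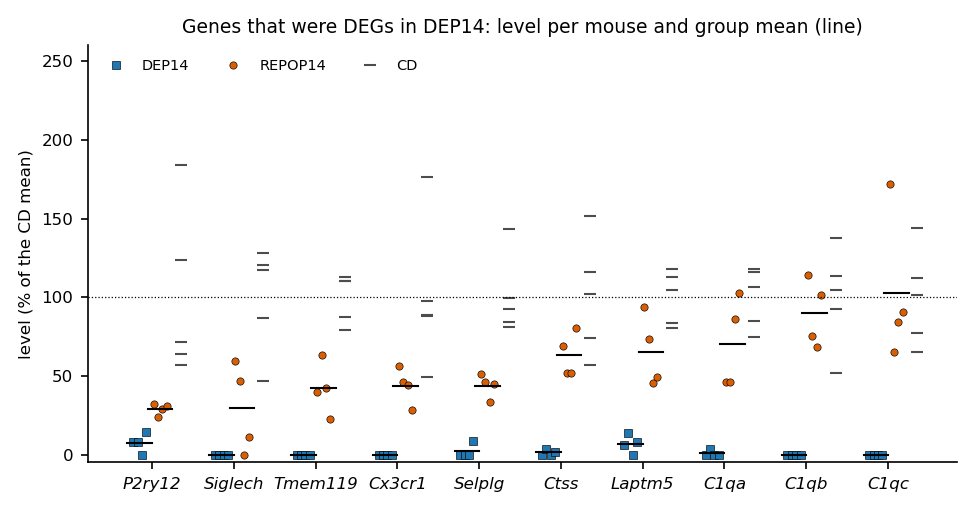
Level of the 10 genes that were DEGs in DEP14, as a percentage of the CD mean, in each DEP14 mouse (squares), REPOP14 mouse (circles) and CD mouse (dashes), with group means as lines. From left to right the REPOP14 mean runs from 28.9% for P2ry12 to 103% for C1qc (22.0% and 74.2% among RE mice only), while DEP14 stays near 0.

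The neighbouring groups of the series put these values in their course. Lyz2 was at 0.506 ± 0.373 CPM at day 10 of repopulation, 1.93 ± 0.583 CPM at day 14, 2.78 ± 1.38 CPM at day 21 and 1.29 ± 1.22 CPM after 2 months (SD, n = 4 each), and the spread within the last 2 groups was wide. P2ry12 was at 0.473 ± 0.0601 CPM at day 10, 0.467 ± 0.0586 CPM at day 14, 0.921 ± 0.486 CPM at day 21 and 1.01 ± 0.542 CPM after 2 months. From day 10 to day 14 the mean of Cx3cr1 went from 0.532 ± 0.494 to 1.72 ± 0.448 CPM, that of Tmem119 from 0.190 ± 0.0734 to 0.688 ± 0.269 CPM, that of Selplg from 0.186 ± 0.213 to 1.22 ± 0.211 CPM and that of Siglech from 0.156 ± 0.233 to 0.322 ± 0.309 CPM. These steps were not tested, and several of the day 10 values are under the floor. All mice of the 2-month group were re mice, so that group and suffix cannot be told apart there.

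Cell cycle genes were examined because proliferating cells switch them on. Mki67 (chr7:135689784-135716361), which encodes the proliferation marker Ki-67, had counts of 0, 0, 0, 1 and 1 in CD, and of 7, 6, 4 and 5 in REPOP14. The groups did not overlap, and the ratio of summed counts was 13.7 with a counting interval of 3.36 to 120 (exact binomial; FDR = 0.215). Rrm2, a ribonucleotide reductase subunit, had 0 counts in all CD mice and 5, 1, 1 and 1 in REPOP14. Without replicate 1 the remaining 3 counts equal the floor, so no fold is given. Both genes passed the filter through REPOP14 alone, so that only a high value could bring them into the test. Top2a had 3 counts in CD and 10 in REPOP14, with an interval across 0. These were the 2 high genes among the 16 of the list, and all 12 genes that passed through both groups had intervals across 0. The summed level of the list, led by Ccna2, was 103 ± 9.0 CPM in CD and 106 ± 6.55 CPM in REPOP14. In DEP14 Mki67 had 2 counts over 4 mice.

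Because Lyz2, Cybb, Mpeg1 and Cd68 are also made by other macrophages and by monocytes, their markers are given. Of 17 such genes 12 were tested, 1 was high and 11 were across 0. The summed level was 21.7 ± 3.78 CPM in CD, 26.2 ± 3.74 CPM in REPOP14 and 23.0 ± 2.38 CPM in DEP14. Lyve1, a hyaluronan receptor and the most abundant gene of the list, was the high one (14.4 ± 2.03 CPM in CD and 17.8 ± 1.76 CPM in REPOP14, 95% interval 0.03 to 0.50). Of the 12 genes 9 were above CD and 3 below, with a median log2 fold change of 0.37. The fitted log2 fold change was under -1 for 2 genes (against 4.04% of all genes tested) and over 1 for 4 (against 4.9%). Those over 1 were Cbr2 (2 and 5 counts over the CD and REPOP14 mice), Ms4a7 (5 and 12), Pf4 (0 and 2) and Plac8 (1 and 3). For Pf4 and Plac8 both groups were at or under 3 counts, so their fitted values are no measure of a fold. All but Ms4a7 of these passed through REPOP14 alone. Some markers that define these cells had few counts. Over the 5 CD and the 4 REPOP14 mice, Mrc1 had 6 and 1 counts, Cd163 had 1 and 0, Ccr2 had 2 and 2, Ly6c2 had 0 and 1, and Pf4 had 0 and 2. At 3 counts as the floor, no fold can be given for the last 4.

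Among markers of activated microglia 3 of 17 genes were high, where 1.82% of all genes tested were. Of the 13 that passed the filter through both groups 1 (Lpl) was high. The other 2 high genes were among the 4 that passed through REPOP14 alone, which could hardly have come out low. A log2 fold change over 1 was found for 4 of this list and for 4.9% of all genes tested. Lpl, a lipoprotein lipase, was at 14.3 ± 1.48 CPM in CD and 18.0 ± 2.03 CPM in REPOP14 (95% interval 0.07 to 0.52). Ch25h, which makes 25-hydroxycholesterol, had 1 count in CD and 10 in REPOP14, with 0 in replicate 2. Lilrb4a, an inhibitory receptor, had 1 and 6. The ratio of summed counts was 12.4 for Ch25h (exact binomial counting interval 1.77 to 539) and 7.45 for Lilrb4a (0.903 to 342). The counting interval of Lilrb4a thus includes a ratio of 1. These last genes passed the filter through REPOP14 alone. The summed level, which Apoe and Ctsb carry, was 1043 ± 45.9 and 1087 ± 70.3 CPM. None of the 9 antigen presentation genes and none of the 11 interferon-response genes had an interval that excluded 0, and the most abundant antigen presentation gene was H2-D1.

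Gfap, the intermediate filament that Müller glia and astrocytes raise in stressed retina, was the one gene of known function with an FDR under 0.05. It was at 11.999, 9.87, 11.989, 11.9 and 10.8 CPM in CD, and at 19.4, 17.1, 17.9 and 18.2 CPM in REPOP14. The groups were far apart relative to their spread (log2 fold change 0.69 ± 0.11 SE, 95% interval 0.46 to 0.92; FDR = 0.0286). The ratio was alike in both suffixes, with REPOP14 at 158% of CD among RE mice and at 170% among re mice. DEP14 was at 21.6 ± 1.41 CPM. The fold change moved between 0.64 and 0.72 over the alternatives, but its FDR was between 0.0388 and 0.665 when 1 mouse was left out, and 0.955 without the suffix. The other 11 Müller glia and astrocyte genes had intervals across 0.

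Serpina3n, an acute-phase protease inhibitor of reactive astrocytes, was at 3.10, 2.62, 3.09, 5.05 and 1.85 CPM in CD and at 4.42, 6.05, 6.73 and 5.74 CPM in REPOP14. CD replicate 4 overlapped with REPOP14 replicate 1 (log2 fold change 0.79, 95% interval 0.37 to 1.21; FDR = 0.719). C4b, a complement component that glia produce, was at 4.64 ± 1.80 and 6.10 ± 0.893 CPM (95% interval 0.05 to 0.91). These were the 2 high genes among 12 tested of the inflammation list of 20, and the cytokine genes of that list were mostly too sparse to test. Nfkbia was its most abundant gene.

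**Figure D5:**
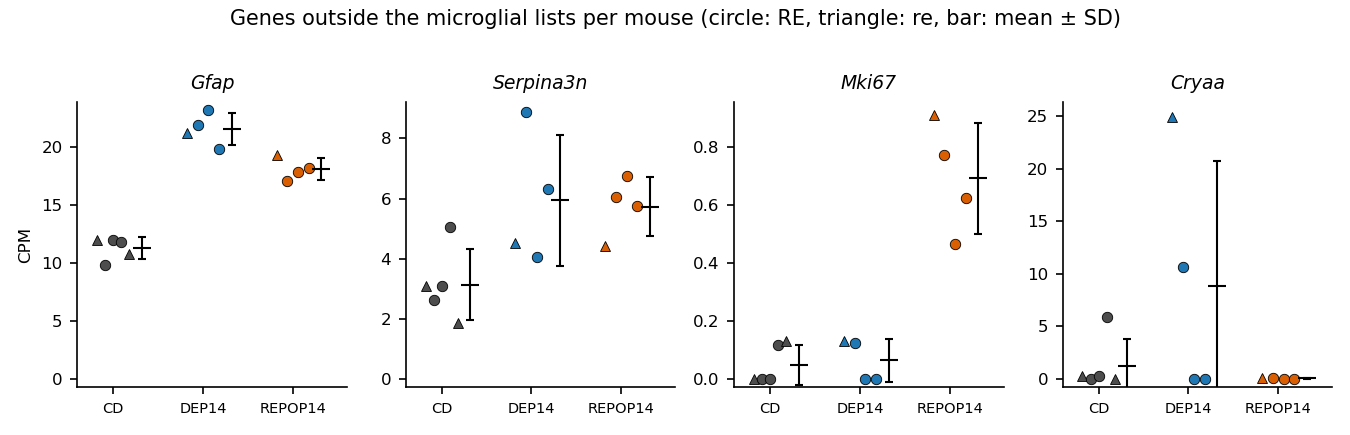
Level of Gfap, Serpina3n, Mki67 and the lens gene Cryaa in each mouse of CD, DEP14 and REPOP14 in CPM (circles, RE; triangles, re; bars, mean ± SD). Gfap and Mki67 of all REPOP14 mice exceed all CD mice, Serpina3n overlaps in 1 CD mouse, and Cryaa is high in 1 CD mouse and 2 DEP14 mice.

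Genes of retinal cells that signal to microglia were also examined. Csf1 and Il34, the ligands of CSF1R, had intervals from -0.37 to 0.25 and from -0.24 to 0.49, and Cx3cl1 (fractalkine) from -0.26 to 0.09. Cd200, a neuronal ligand that restrains microglia, was at 24.7 ± 2.97 CPM in CD and 29.0 ± 1.47 CPM in REPOP14 (95% interval 0.01 to 0.41; FDR = 0.995). Of 10 rod genes 1 was low (Nr2e3, the rod nuclear receptor, 95% interval -0.34 to -0.07), and none of 8 cone, 16 inner retinal neuron and 10 endothelial and pericyte genes had an interval that excluded 0. Opn1sw, Prkca and Kdr were the most abundant genes of these 3 lists.

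Markers of tissue next to the retina varied between mice. The 10 lens genes summed to 2.32, 2.62, 2.45, 16.4 and 0.924 CPM in CD and to 2.34, 0.773, 1.16 and 1.25 CPM in REPOP14, so CD replicate 4 stood apart. Of 8 tested 4 were low (Cryaa, Cryba1, Cryba2 and Crybb2), all but Cryaa through the filter of CD alone. Cryba1 had 27 counts in CD, 22 of them in that mouse, and none in REPOP14. Krt5 and Krt13, keratins of stratified epithelia such as the ocular surface, had 36 and 15 counts in REPOP14 replicate 1 and at most 2 in each of the other mice. Aldh3a1, a corneal enzyme, was at 4.81 CPM in that mouse and at 0.264 CPM or less in the others. The part of these tissues in the microglial values was not tested. Without CD replicate 4 the count of low microglial genes was 10, and without REPOP14 replicate 1 it was 14. Among 10 pigment epithelium genes, led by Rlbp1, only the sparse Mlana was high (0 and 3 counts, through REPOP14 alone), and among 5 erythrocyte genes, led by Hbb-bs, only the sparse Hba-a2 was low.

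Over all genes with a mean of at least 1 CPM, the 8 with the smallest p among the higher ones were Gfap, Glp2r, Serpina3n, Dnaic1, Mcm10, Gsto1, Cyyr1 and Angpt1. All REPOP14 mice exceeded all CD mice for Gfap, Cyyr1 and Angpt1, as they did for 0.368% of all genes tested. Angpt1, the ligand of the endothelial receptor TIE2, was at 0.645, 0.951, 1.03, 0.705 and 0.396 CPM in CD and at 1.82, 1.55, 1.63 and 1.75 CPM in REPOP14 (log2 fold change 1.12, 95% interval 0.44 to 1.80; FDR = 0.995). Mcm10, a DNA replication factor, was at 7.46 ± 1.67 and 10.4 ± 2.06 CPM (FDR = 0.748). Dnaic1, a dynein chain of motile cilia, was at 2.86 ± 0.477 and 5.12 ± 1.47 CPM (FDR = 0.720), and the receptor gene Glp2r at 198 ± 59.4 and 231 ± 83.6 CPM (FDR = 0.413), with the re mice highest in both groups. Gsto1, a glutathione transferase, rested on replicate 1, at 22.1 CPM against 8.11 to 11.8 CPM in the other REPOP14 mice. Cyyr1, a small membrane protein, was at 1.49 ± 0.417 and 2.94 ± 0.661 CPM (FDR = 0.981).

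The 8 with the smallest p among the lower ones were P2ry12, mt-Atp6 and 6 pseudogenes (Gm28438, Gm29216, Gm10222, Gm28437, Gm28661 and Gm28439). The pseudogenes lie side by side at chr1:24611535-24616197 on the minus strand, where the nuclear genome holds a copy of mitochondrial DNA. For 4 of the 6 every window of 50 bases, the length of a read, was identical to a window of a mitochondrial transcript in GENCODE M21, and for Gm28438 and Gm29216 this held for 99.0% and 97.1% of the windows. Their reads cannot be told from those of mitochondrial genes, and the values are uncertain. The same holds for mt-Atp6, since all 629 such windows of Gm10925, another pseudogene of this block, are identical to mitochondrial sequence and match mt-Atp6. Gm28438, whose sequence matches mt-Nd3, ranged from 0.645 to 34.1 CPM in CD and from 0.779 to 9.52 CPM in REPOP14 (log2 fold change -1.62, 95% interval -2.15 to -1.10; FDR = 0.0286), and without the suffix its interval was -2.96 to 0.25. Gm29216, which matches mt-Co1, ranged from 5.68 to 99.9 CPM and from 4.55 to 50.7 CPM (log2 fold change -0.93; FDR = 0.0410).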

How the data were processed

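Retinal RNA was sequenced in single-end mode (BGISEQ-500, 50 bases a read). The authors aligned the reads to mm10 with HISAT2 and deposited read counts per gene from HTSeq, not normalized. FPKM values were also deposited by the authors, from StringTie. Tool versions, annotation and strand setting are not given in the sources used here, so reads of overlapping and near-identical genes cannot be told apart. Of 50686 identifiers, 50462 were named and placed with GENCODE M21 (GRCm38), and all columns matched a sample.

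edgeR 4.0.16 (R 4.3.3) fitted the counts of the 9 mice (TMM, terms for title suffix and group, quasi-likelihood F test). A gene was tested where CD or REPOP14 had at least 1 count in 50% or more of its mice. DEGs and intervals are defined where first used, and the standard error is the log2 fold change divided by the square root of F. CPM use TMM library sizes over all 65 mice. The additive batch model of the study names no batches, and the suffix stands in for them. The fits were also run on simulated data with 200 changed genes, and no outcome of that run is given here. The alternatives were no suffix, the replicate number as a block, RE mice only, RLE, the likelihood ratio test, DESeq2 1.42.0, other gene filters, a looser DEG threshold, all 16 groups in one fit, limma 3.58.1 on log2(FPKM + 0.1) and log2(FPKM + 1), and leaving out each mouse. Python 3.11.15 was used for the tables and plots.

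Replicate numbers name mice and do not pair them, and no 2 libraries of the same group agreed within sampling noise. The gene lists and members were chosen with earlier results of these data known. The rule for named genes covered every tested microglial gene, every DEG, the 8 genes with the smallest p in each direction at a mean of at least 1 CPM, members of the other lists with p under 0.05 or else the most abundant, and the tissue markers. Values per mouse were due for microglial genes with a CD mean of at least 1 CPM and among the 8 lowest or highest log2 fold changes, and the values per mouse of C1qa, C1qb, Laptm5, Sall1, Lyz2 and Cybb, and the genes Krt5, Krt13, Aldh3a1 and Eno1b, were added after the values were seen. A few genes of these lists count in the totals and are not reported here.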

Additional observations from a re-analysis of the deposited data

Results flagged for a closer look

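In 121 sets of a named gene in one group, 16 had 1 mouse set apart from the rest of its group by Dixon's gap test at the 95% level. Chance sets a mouse apart in about 1 set of 20, but that rate does not apply to these sets, since Krt5, Krt13, Aldh3a1 and Eno1b were included after their values were seen and 1 count against zeros always stands apart. REPOP14 replicate 1 accounted for 5 of them, with Krt5 at 4.68 CPM, Krt13 at 1.95, Aldh3a1 at 4.81, Glp2r at 357 and Rrm2 at 0.649 CPM (against 0.2495, 0.129, 0.2495, 191 and 0.129 CPM at most in the other REPOP14 mice). It is the only re mouse of its group.

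CD replicate 4 accounted for 4, with Cryaa at 5.87 CPM, Cryba1 at 2.58, Crybb2 at 3.52 and Eno1b at 11.9 CPM, where the other CD mice reached at most 0.258, 0.387, 0.594 and 1.68 CPM. Without this mouse the log2 fold change of Cryaa in REPOP14 went from -4.35 to -0.75 (95% interval -3.38 to 1.89).

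Among microglial genes, Fcrls was at 1.37 CPM in REPOP14 replicate 4 against at most 0.464 CPM in the others, Slc2a5 at 0.464 CPM in REPOP14 replicate 3 against 0, and Gpr34 at 1.78 CPM in CD replicate 2 against at most 0.902 CPM. Dnaic1 was at 3.69 CPM in CD replicate 2 against at most 2.84 CPM. A few counts set apart Ch25h (0.132 CPM in CD replicate 2M), Lilrb4a (0.129 CPM in CD replicate 3) and Crybb2 (0.348 CPM in REPOP14 replicate 3), where all other mice of the group were at 0.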

How the results depend on the processing

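The count of 0 DEGs became 2 with the replicate block, 4 with the likelihood ratio test, 12 with no gene filter and 3 at an FDR under 0.05 with no fold threshold, and stayed 0 with no suffix, RE mice only, RLE, filterByExpr, DESeq2 and all 16 groups. With no gene filter the 12 included Cx3cr1 and P2ry12, and the 2 under the block were Gm28438 and Gm10222. limma on log2(FPKM + 0.1) gave 2 DEGs (Gm22056 and Gm13349), and on either FPKM scale 11 microglial genes were low and 4 high. The 17 low microglial genes became 9 with filterByExpr and 9 with DESeq2. The 5 high ones became 3 with no suffix, 3 with filterByExpr, 2 with DESeq2 and 3 with all 16 groups. The median log2 fold change of the microglial genes was -0.12, and -0.30 among RE mice only. Leaving out 1 mouse at a time gave 0 to 1 DEGs, 10 to 15 low genes, 3 to 5 high genes and a median of -0.30 to -0.062. The single DEG, Gm28437, came without REPOP14 replicate 3. The 10 low genes came without CD replicate 4, the 3 high genes without CD replicate 2, CD replicate 3 or REPOP14 replicate 4, and the median of -0.30 without REPOP14 replicate 1. The filters test other numbers of genes, and the cause of the other changes was not tested.

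Cx3cr1, Tmem119, Selplg, Ctss and Lyz2 kept the side of their interval in all 18 alternative count fits. P2ry12, Siglech, Ptprc and Cybb kept it in 17 and did not pass filterByExpr, so they were not tested there. Cybb passed the main filter through REPOP14 alone. The 18 fits share mice and are not independent. The fit without REPOP14 replicate 1 nearly repeats that of RE mice only (Cx3cr1 -1.409 and -1.408), and RLE nearly repeats the main fit (C1qa -0.549 and -0.5486). P2ry13 and Slc2a5 kept it in 5. Replicate numbers did not pair the mice, since the deviations of same-numbered mice correlated at 0.69, 0.31, -0.40 and 0.16 over 12326 genes and 1 of 4 REPOP14 mice correlated best with its own number. With 3 counts worth 0.350 to 0.402 CPM, genes below about 1 CPM carry wide intervals, and a value across 0 does not show that a gene equals control.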
